A study of Homo sapiens with 9 samples.

Results

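The ephrins, the Eph receptors, the semaphorins and the plexins are the ligands and receptors of contact and guidance signalling, and their RNA levels were examined in 9 human cell lines. Members were taken by gene symbol alone, as every gene of the count table named EPHA or EPHB, EFNA or EFNB, SEMA or PLXN with its number or letter and nothing further. This gave 51 of 52158 named genes, made up of 14 Eph receptors (9 EPHA and 5 EPHB), 8 ephrins (5 EFNA and 3 EFNB), 20 semaphorins (7 of class 3 and 13 of classes 4 to 7) and 9 plexins. The lines, named here as labelled, were ESO-26, ESO-51, FLO-1, JH_EsoAd1, OACP4_C, OAC_5.1_C, OE19, OE33 and SK-GT-4. By the labels all 9 carry oesophageal adenocarcinoma as cell type, and the source is given as adenocarcinoma of the gastric cardia. All were cultures without treatment, and total RNA was sequenced. With 1 library per line, differences between lines have no check from replicates and could not be tested. Although 3 technical replicates are mentioned in the design text, the sources used here do not say how they were combined into 1 column.

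Eph receptors form a family of receptor tyrosine kinases, and their ephrin ligands are held on the surface of the neighbouring cell, so signals pass in both directions where cells touch. Ephrin-A proteins are tied to the membrane by a lipid anchor, whereas ephrin-B proteins span it, and receptors are called A or B by the ligands that they mainly bind. Semaphorins are secreted (class 3) or membrane-bound (classes 4 to 7) and act through plexins, whose inner part switches off small GTPases, and most class 3 members also need a neuropilin. The families were first known for steering axons and sorting cells at tissue boundaries, and in epithelia they take part in cell positioning, adhesion and movement.

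Levels are counts relative to the size of the library (CPM) after TMM scaling, and gaps and ranges are on the log2(CPM + 1) scale. The table held 16801179 counts (ESO-26) to 69881539 counts (FLO-1) per library. Mitochondrial genes took 24.7% of counts in JH_EsoAd1 and 1.48% to 7.04% in the other 8 libraries. Some libraries stood apart from their labels: ERBB2, known as amplified in OE19, was 18325 CPM in the SK-GT-4 library but 185 CPM in the OE19 library. Every line name below is therefore the label of a library. Counts of genes apart or beyond 2-fold were repeated without OE19 and SK-GT-4. The other labels were not checked in this way. Among them, ESO-26 had the lowest ERBB2 level (10.4 CPM) and OE33 the lowest MET level (57.7 CPM, against 12506 CPM in OE19). All 6 epithelial markers reached 5 CPM in 7 libraries, 5 of 6 did in OE33 (EPCAM 0.189 CPM) and 3 of 6 did in ESO-26. In ESO-26 the epithelial markers summed to 163 CPM, with EPCAM at 5.13 CPM and CDH1 at 0.173 CPM, against sums of 1204 to 14377 CPM in the other 8 libraries. Haematopoietic markers summed to at most 2.10 CPM, and endothelial markers to 32.1 CPM in JH_EsoAd1 and at most 8.88 CPM elsewhere. Intervals are exact Poisson 95% intervals and, like the floor of 3 counts given where a count was 0, cover counting error only.

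Guidance genes were widely detected, but not the same ones in each line. A level of 1 CPM was reached by 30 of the 51 genes in OE19, 34 in ESO-26, 35 in OACP4_C and in OAC_5.1_C, 36 in ESO-51, 38 in FLO-1 and in SK-GT-4, and 42 in OE33 and in JH_EsoAd1. Of all named genes 26.2% reached 1 CPM in OE19, 26.5% in ESO-26, 27.3% in OACP4_C, 27.8% in OAC_5.1_C, 27.8% in ESO-51, 29.2% in FLO-1, 27.7% in SK-GT-4, 27.2% in OE33 and 28.3% in JH_EsoAd1. The closer background is protein-coding genes, of which 59.5% reached 1 CPM in OE19 and 64.4% in JH_EsoAd1, against 58.8% and 82.4% of the guidance genes in the same libraries. All 9 libraries reached 1 CPM for 21 of the 51 genes (41.2%), against 48.6% of protein-coding genes. EPHA8, an ephrin-A receptor of the developing brain, was under 1 CPM throughout, with its highest level in OE33 at 0.490 CPM. A count of 0 in at least 1 library was found for 13 genes. In RNA of whole cultures, fewer cells of a type and less RNA per cell cannot be told apart.

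**Figure D1:**
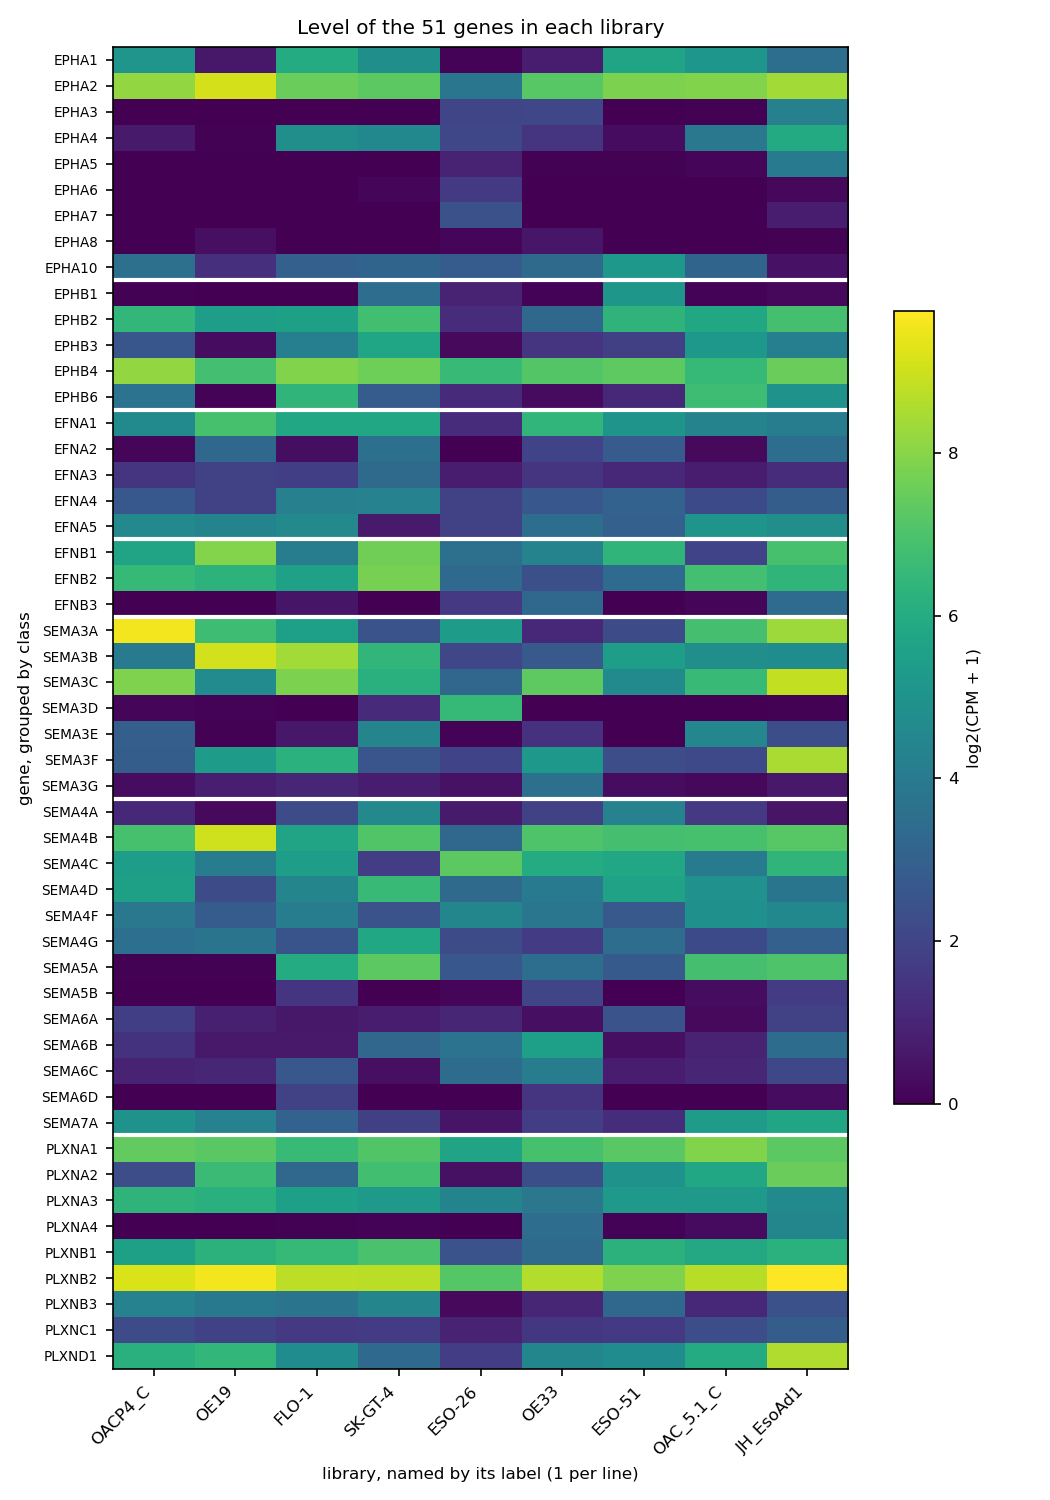
Level of each of the 51 genes on the log2(CPM + 1) scale (colour) in the 9 libraries (columns), with genes in rows grouped by class and white lines between classes. PLXNB2, EPHA2 and EPHB4 are bright in most columns, while EPHA6, EPHA7, EPHA8 and SEMA6D are dark in nearly all, and SEMA3D is bright in ESO-26 only.

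Levels of these genes varied more between the lines than those of most genes. Of the 45 genes that reached 5 CPM in a library, 32 (71.1%) spanned at least 4 units on the log2(CPM + 1) scale between their lowest and highest library, against 21.3% of all genes at that level and 22.9% of the protein-coding ones. The count depended on low values: with a pseudocount of 5 it was 16 of 45 (35.6%), against 8.53% of all genes. It was also lower in the deposited FPKM and per kilobase, where the share of all genes was not computed. The widest range was that of SEMA3A, at 8.51 units, followed by SEMA5A (7.22), PLXNA2 (7.10) and SEMA3B (7.02). The narrowest ranges among genes at 1 CPM in every library were those of EPHB4 (1.65 units), PLXNA1 (2.23) and SEMA4F (2.40).

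A gene was counted as apart in a library where its value lay at least 2 log2 units (4-fold) beyond the nearest of the other 8, with the higher side at 5 CPM or more. By this rule of size 7 of the 45 genes at 5 CPM in a library stood higher in a library (15.6%, against 7.45% of all such genes and 7.38% of the protein-coding ones), and 5 of the 17 genes at 5 CPM in 8 libraries stood lower (29.4%, against 4.48% and 4.57%). ESO-26 held 4 of the 5 lower genes, EPHA2, EPHB2, EFNA1 and SEMA4B, and 1 higher gene, SEMA3D. JH_EsoAd1 held 4 of the 7 higher genes, EPHA3, EPHA5, SEMA3F and PLXND1. SK-GT-4 was apart for SEMA4G (higher) and SEMA4C (lower), and OE33 for SEMA3G (higher). In the other 5 libraries no guidance gene was apart. Of the 12 genes, EPHA2 and SEMA3D in ESO-26 stayed apart under all 9 processing alternatives, and the other 10 fell under the limit in at least 1. Among the alternatives, a gap of 1 log2 unit, no minimum CPM and a pseudocount of 0.5 could not remove a gene. With OE19 and SK-GT-4 both left out, the count apart in the remaining libraries was 16. The rule is easier to meet for any gene with fewer libraries to compare, and the share of all genes was not computed there. The SEMA4G and SEMA4C results rest on SK-GT-4 itself.

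**Figure D2:**
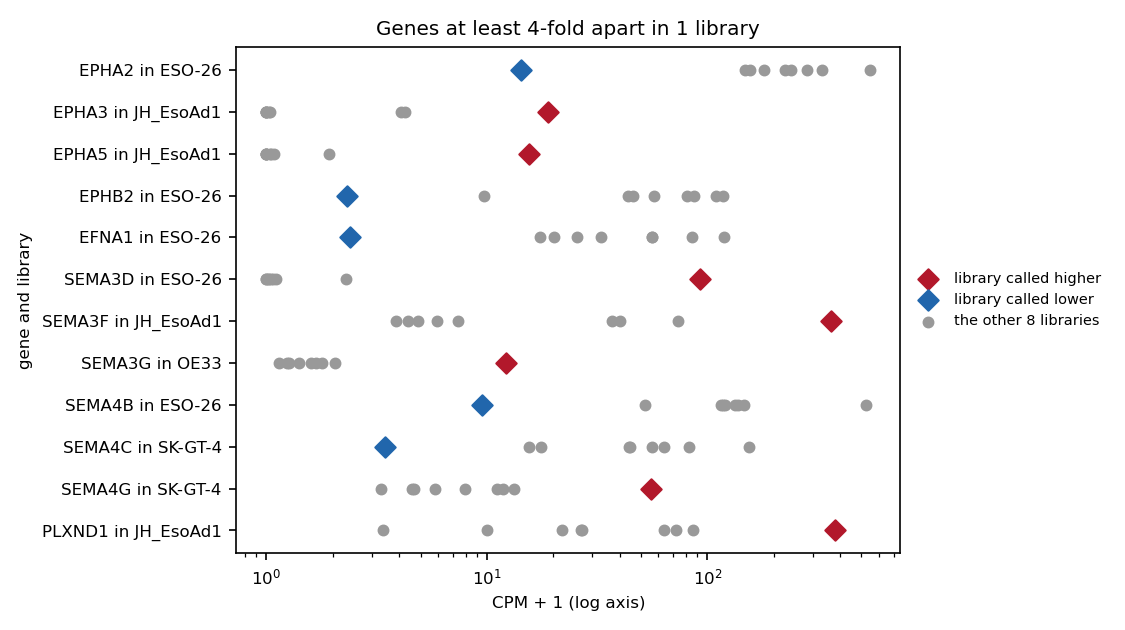
CPM + 1 (log axis) of the 12 genes that lay at least 4-fold beyond all other libraries, with the library that was apart as a diamond (red higher, blue lower) and the other 8 as grey points. SEMA3D in ESO-26 and EPHA2 in ESO-26 lie farthest from the nearest grey point, at 91.3 against 1.29 CPM and 13.2 against 148 CPM.

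EPHA2, the ephrin-A1 receptor of epithelial cells, was the leading EPHA receptor in all 9 libraries but was far lower in ESO-26. It stood at 13.2 CPM in ESO-26 (95% interval 11.6 to 15), against 148 CPM in OE33, 154 in SK-GT-4, 180.2 in FLO-1, 224 in ESO-51, 238 in OAC_5.1_C, 282 in OACP4_C, 330.3 in JH_EsoAd1 and 547 in OE19. The gap to OE33 was -3.39 log2 units, where 1.93% of all genes were lower in ESO-26 by the same rule. ESO-26 was also the library with the fewest counts and the lowest epithelial marker sum, and their part in this and the other low values of ESO-26 was not tested. Per kilobase of gene length, EPHA2 made up 53.3% (ESO-26) to 99.8% (OE19) of the summed EPHA level, and that sum was 4.08 CPM per kilobase in ESO-26 and 25.7 to 90.3 in the other 8 libraries.

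EPHA1, the founding member of the family, separated the libraries into high and nearly silent ones. It was 63.0 CPM in FLO-1, 50.2 in ESO-51, 33.7 in OAC_5.1_C, 32.6 in OACP4_C, 27.7 in SK-GT-4 and 10.3 in JH_EsoAd1, but 0.717 in OE33, 0.535 in OE19 and 0.0577 in ESO-26. EPHA4, which can bind ephrins of both kinds, had another order. It was 60.2 CPM in JH_EsoAd1, 27.1 in FLO-1, 22.1 in SK-GT-4 and 13.7 in OAC_5.1_C, against 3.17 in ESO-26, 1.77 in OE33, 0.638 in OACP4_C, 0.245 in ESO-51 and 0.0356 in OE19. OE19 thus held the highest EPHA2 level and the lowest EPHA4 level of the 9 libraries.

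EPHA3, EPHA5, EPHA6 and EPHA7, receptors best known from the developing nervous system, reached 1 CPM in JH_EsoAd1, ESO-26 or OE33 and in no other library. EPHA3 was 17.9 CPM in JH_EsoAd1 (16.1 to 19.8), against 3.24 in OE33, 3.06 in ESO-26, 0.0412 in OAC_5.1_C and 0.0222 in ESO-51, with 0 counts in OACP4_C, OE19, FLO-1 and SK-GT-4 (floors of 0.0400 to 0.107 CPM). EPHA5 was 14.5 CPM in JH_EsoAd1 (12.9 to 16.3), against 0.923 in ESO-26, 0.0823 in OAC_5.1_C, 0.0445 in ESO-51 and 0.0377 in OE33, with 0 counts in the same 4 libraries. The gaps were 2.15 and 3.01 log2 units, where 0.658% of all genes were higher in JH_EsoAd1. With a pseudocount of 5 these gaps were 1.47 and 1.72, and in the deposited FPKM 0.144 and 0.201. The EPHA3 gap was 1.80 with scaling by library size alone. EPHA7 reached 4.33 CPM and EPHA6 2.13 CPM in ESO-26, and neither passed 0.694 CPM elsewhere. Of the 4 neural markers matched of 5 listed, JH_EsoAd1 had SYP at 0.0496 CPM, CHGA at 0.347 CPM and SNAP25 at 0.248 CPM. These markers were thus near 0 where EPHA3 and EPHA5 were highest, while MBP was 23.8 CPM. SYP was highest in OE33 (16.8 CPM), then ESO-26 (8.88 CPM), then SK-GT-4 (1.06 CPM). CHGA was also highest in OE33 (2.41 CPM) but had 0 counts in ESO-26. SNAP25 was low in OE33 (0.415 CPM) and at 0 counts in ESO-26. MBP was lowest in ESO-26 (0.865 CPM), followed by OE33 (5.73 CPM). The part of these markers in the receptor levels was not tested. EPHA10, which lacks kinase activity, ranged from 0.397 CPM in JH_EsoAd1 to 35.3 CPM in ESO-51.

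Among the EPHB receptors, EPHB4 was even across the lines and the others were not. EPHB4, the ephrin-B2 receptor that marks veins, was 287 CPM in OACP4_C, 237 in FLO-1, 191 in SK-GT-4, 183 in JH_EsoAd1, 158 in ESO-51, 138 in OE33, 113 in OE19, 92.4 in ESO-26 and 90.9 in OAC_5.1_C. EPHB6, a receptor without kinase activity, was 104 CPM in OAC_5.1_C, 82.3 in FLO-1, 30.0 in JH_EsoAd1, 12.1 in OACP4_C, 6.21 in SK-GT-4, 1.21 in ESO-26, 1.16 in ESO-51, 0.226 in OE33 and 0.0713 in OE19. The range was 6.61 log2 units for EPHB6 and 1.65 for EPHB4. Both genes lie on chromosome 7, and their promoters are shown as the steadiest and the most variable EPHB receptor, from RefSeq on GRCh38.p14, each 250 bases before to 50 bases after the annotated start, on the strand of the gene and 5′ to 3′. Capitals mark CG pairs, of which the EPHB4 window (chr7:100827474-100827773, minus strand) holds 36 and the EPHB6 window (chr7:142862506-142862805, plus strand) holds 3.
EPHB4: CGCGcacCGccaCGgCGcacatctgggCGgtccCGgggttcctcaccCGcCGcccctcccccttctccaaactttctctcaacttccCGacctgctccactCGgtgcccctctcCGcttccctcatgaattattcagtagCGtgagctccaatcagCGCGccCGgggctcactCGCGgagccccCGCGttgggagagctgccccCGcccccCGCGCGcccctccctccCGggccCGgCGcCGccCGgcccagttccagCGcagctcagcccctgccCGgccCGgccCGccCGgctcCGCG
EPHB6: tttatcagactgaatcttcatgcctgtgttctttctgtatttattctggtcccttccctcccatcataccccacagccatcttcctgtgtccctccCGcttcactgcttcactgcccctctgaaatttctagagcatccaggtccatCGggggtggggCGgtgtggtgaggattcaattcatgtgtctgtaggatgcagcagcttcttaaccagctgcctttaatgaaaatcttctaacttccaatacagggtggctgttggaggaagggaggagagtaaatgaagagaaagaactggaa
The count files were made on GRCh37, so these coordinates belong to the sequences only, and each window covers 1 annotated start where a gene may have others. The median over all 35116 RefSeq promoter windows of this length was 14 CG pairs. The windows of EPHB2, EPHB3 and EPHB1 held 49, 26 and 19 CG pairs, and these genes had ranges of 5.66, 5.48 and 5.14 log2 units.

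EPHB2 and EPHB3, which place cells along the crypts of the mouse intestine, were both lowest in ESO-26 and differed elsewhere. EPHB2 was 1.33 CPM in ESO-26 (0.841 to 1.99), against 8.71 in OE33, 42.6 in OE19, 44.9 in FLO-1, 56.2 in OAC_5.1_C, 79.9 in ESO-51, 85.7 in OACP4_C, 109 in SK-GT-4 and 116 in JH_EsoAd1, a gap of -2.06 log2 units. EPHB3 ranged from 0.173 CPM in ESO-26 and 0.249 in OE19 to 51.4 in SK-GT-4. EPHB1, a receptor of retinal axons, was 34.3 CPM in ESO-51 and 10.1 in SK-GT-4 and at most 0.980 CPM in the other 7 libraries. Per kilobase, EPHB4 led its class in all 9 libraries with 27.5% to 95.7% of the sum. With the exon length of GENCODE release 29 in place of the deposited gene length, EPHB4 led in 8 and EPHB6 in 1.

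Ephrin ligands were also lowest, as a class, in ESO-26. EFNA1, the main partner of EPHA2, was 1.38 CPM in ESO-26 (0.887 to 2.06), against 16.4 in JH_EsoAd1, 19.2 in OAC_5.1_C, 24.5 in OACP4_C, 31.9 in ESO-51, 54.8 in FLO-1, 55.3 in SK-GT-4, 84.5 in OE33 and 118 in OE19. The gap to JH_EsoAd1 was -2.86 log2 units. ESO-26 thus had the lowest level of both EPHA2 and EFNA1, and OE19 the highest of both. The summed ephrin-A level per kilobase was 1.80 in ESO-26 and 9.85 (OAC_5.1_C) to 32.8 (OE19) in the other 8 libraries.

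Per kilobase EFNA1 led the ephrin-A class in 6 libraries, and EFNA2 (JH_EsoAd1), EFNA4 (ESO-26) and EFNA5 (OAC_5.1_C) in 1 each. EFNA2 ranged from 0 counts in ESO-26 (floor 0.173 CPM) to 10.9 CPM in SK-GT-4, and EFNA5 from 0.611 CPM in SK-GT-4 to 32.0 CPM in OAC_5.1_C. EFNA4 ranged from 2.67 CPM (OE19) to 19.1 CPM (SK-GT-4) and EFNA3 from 0.692 CPM (ESO-26) to 9.26 CPM (SK-GT-4). Counts of EFNA3 and EFNA4 are uncertain, because both overlap AL691442.1 on the same strand and the deposited intersection-nonempty counts were 14.8% to 108% higher for EFNA3 and 13.3% to 37.3% higher for EFNA4 than the union counts used. EFNA4, EFNA3 and EFNA1 neighbour each other on chromosome 1 yet were highest in different libraries, SK-GT-4 for EFNA4 and EFNA3 and OE19 for EFNA1.

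Lines differed in which ephrin-B gene led. EFNB1, an X-linked ligand, was 242 CPM in OE19, 197 in SK-GT-4, 118 in JH_EsoAd1, 82.2 in ESO-51, 50.0 in OACP4_C, 19.4 in OE33, 16.6 in FLO-1, 11.1 in ESO-26 and 2.92 in OAC_5.1_C. EFNB2, the partner of EPHB4, was 213 CPM in SK-GT-4, 113 in OAC_5.1_C, 91.2 in OACP4_C, 81.8 in JH_EsoAd1, 78.1 in OE19, 46.4 in FLO-1, 9.65 in ESO-51, 8.94 in ESO-26 and 4.22 in OE33. Per kilobase EFNB1 led in 6 libraries and EFNB2 in 3, with EFNB1 at 92.0% of the class in its highest library and 3.36% in its lowest. EFNB3 passed 1 CPM in JH_EsoAd1 (9.62), OE33 (8.41) and ESO-26 (2.08) and had 0 counts in OACP4_C, OE19, SK-GT-4 and ESO-51 (floors of 0.0518 to 0.107 CPM). EFNB2 thus ranged from 4.22 to 213 CPM over lines in which its receptor EPHB4 stayed between 90.9 and 287 CPM.

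**Figure D3:**
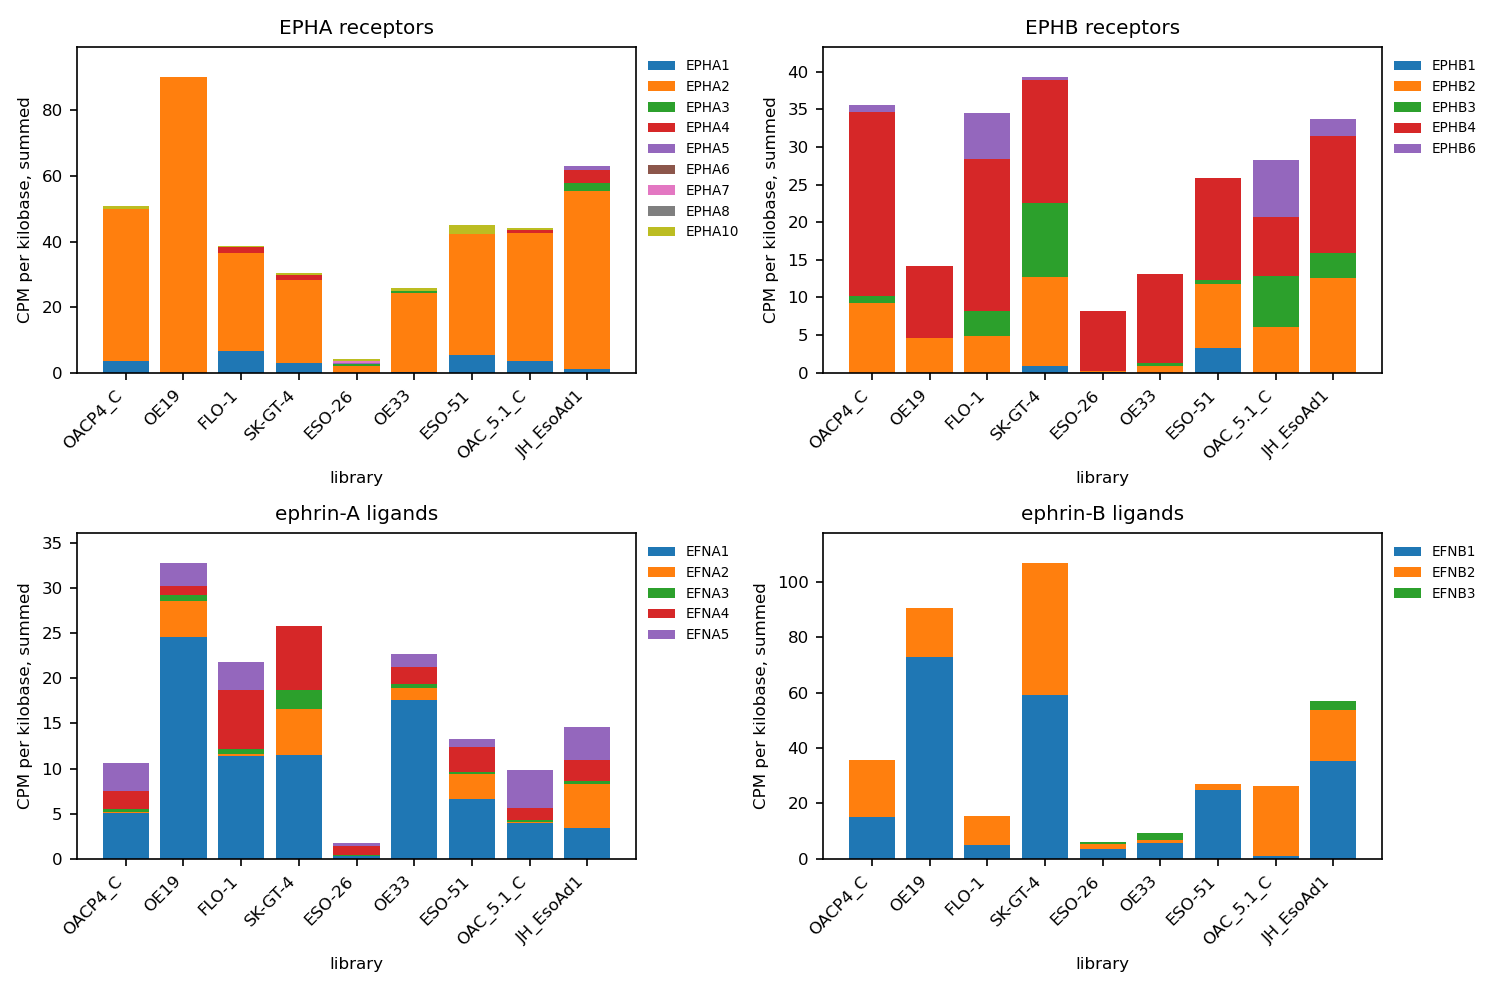
Summed level of the EPHA receptors, EPHB receptors, ephrin-A and ephrin-B ligands in CPM per kilobase of the deposited gene length (bars, stacked by gene) in the 9 libraries. EPHA2 fills most of each EPHA bar, the ephrin-B bars reach 107 in SK-GT-4 and 90.6 in OE19, and the ESO-26 bar is the lowest in all 4 panels, at 4.08, 8.25, 1.80 and 6.01.

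Class 3 semaphorins differed widely between lines, and SEMA3A had the widest range of the 51 genes. SEMA3A, which repels axons through neuropilin-1 and A plexins, was 764 CPM in OACP4_C, 315 in JH_EsoAd1, 116 in OAC_5.1_C, 103 in OE19, 43.6 in FLO-1, 39.7 in ESO-26, 4.66 in SK-GT-4, 3.85 in ESO-51 and 1.09 in OE33. SEMA3C, a signal of heart outflow tract formation, was 458 CPM in JH_EsoAd1, 232 in OACP4_C, 224 in FLO-1, 157 in OE33, 92.1 in OAC_5.1_C, 72.0 in SK-GT-4, 25.1 in OE19, 24.6 in ESO-51 and 8.30 in ESO-26. OACP4_C and JH_EsoAd1 were the highest libraries for both genes, in opposite order. SEMA3E, the ligand that binds plexin-D1 without a neuropilin, was 21.7 CPM in OAC_5.1_C and 20.4 in SK-GT-4 and lowest in ESO-51 (0 counts, floor 0.0667 CPM).

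SEMA3D, known in zebrafish and mouse for axon and heart development, was the gene most apart of all members. It was 91.3 CPM in ESO-26 (86.9 to 95.9), against 1.29 in SK-GT-4 (0.919 to 1.75), 0.104 in OACP4_C, 0.0713 in OE19, 0.0496 in JH_EsoAd1, 0.0222 in ESO-51 and 0.0206 in OAC_5.1_C, with 0 counts in FLO-1 (floor 0.0400 CPM) and OE33 (floor 0.113 CPM). The gap was 5.34 log2 units, where 1.24% of all genes were higher in ESO-26. Of the 6 mesenchymal markers, 3 reached 5 CPM in ESO-26 (COL3A1 311, VIM 246 and DCN 13.5 CPM). The 6 summed to 575 CPM there, against 3.05 to 1681 CPM in the other 8 libraries. VIM made up most of the high sums elsewhere, with 1679 CPM in OE19 and 616 CPM in OE33. Outside ESO-26, COL3A1 was at most 2.92 CPM and DCN at most 0.622 CPM. The others were highest elsewhere, COL1A1 (46.5 CPM) and COL1A2 (40.6 CPM) in JH_EsoAd1 and LUM (30.1 CPM) in OAC_5.1_C. The part of these markers in the SEMA3D level was not tested.

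SEMA3C, SEMA3E, SEMA3A and SEMA3D lie in this order on chromosome 7, with 3 protein-coding genes between SEMA3C and SEMA3E and none between SEMA3E and SEMA3A or between SEMA3A and SEMA3D, by GENCODE release 29. Their highest libraries were 4 different ones, JH_EsoAd1, OAC_5.1_C, OACP4_C and ESO-26. The promoter windows of SEMA3C (chr7:80922340-80922639), SEMA3E (chr7:83649090-83649389) and SEMA3D (chr7:85187007-85187306), all on the minus strand, are shown because these neighbours differed in where they were expressed, with CG pairs again in capitals and numbering 2, 6 and 14.
SEMA3C: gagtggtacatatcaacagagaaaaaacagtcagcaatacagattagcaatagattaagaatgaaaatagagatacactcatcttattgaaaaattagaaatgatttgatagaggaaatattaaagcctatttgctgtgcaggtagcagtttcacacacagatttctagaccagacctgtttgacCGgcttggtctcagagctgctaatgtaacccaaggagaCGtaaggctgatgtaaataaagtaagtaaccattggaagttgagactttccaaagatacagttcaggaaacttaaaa
SEMA3E: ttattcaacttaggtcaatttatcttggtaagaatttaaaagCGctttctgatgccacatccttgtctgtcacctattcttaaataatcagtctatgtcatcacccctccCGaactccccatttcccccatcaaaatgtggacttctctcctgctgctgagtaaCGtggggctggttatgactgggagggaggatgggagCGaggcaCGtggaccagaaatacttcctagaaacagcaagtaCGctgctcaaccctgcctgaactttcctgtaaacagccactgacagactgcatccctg
SEMA3D: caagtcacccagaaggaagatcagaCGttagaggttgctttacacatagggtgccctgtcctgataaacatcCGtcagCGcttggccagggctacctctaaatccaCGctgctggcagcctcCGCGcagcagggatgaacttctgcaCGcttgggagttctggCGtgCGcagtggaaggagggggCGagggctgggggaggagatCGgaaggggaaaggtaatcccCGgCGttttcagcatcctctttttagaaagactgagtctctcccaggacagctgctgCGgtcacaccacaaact

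**Figure D4:**
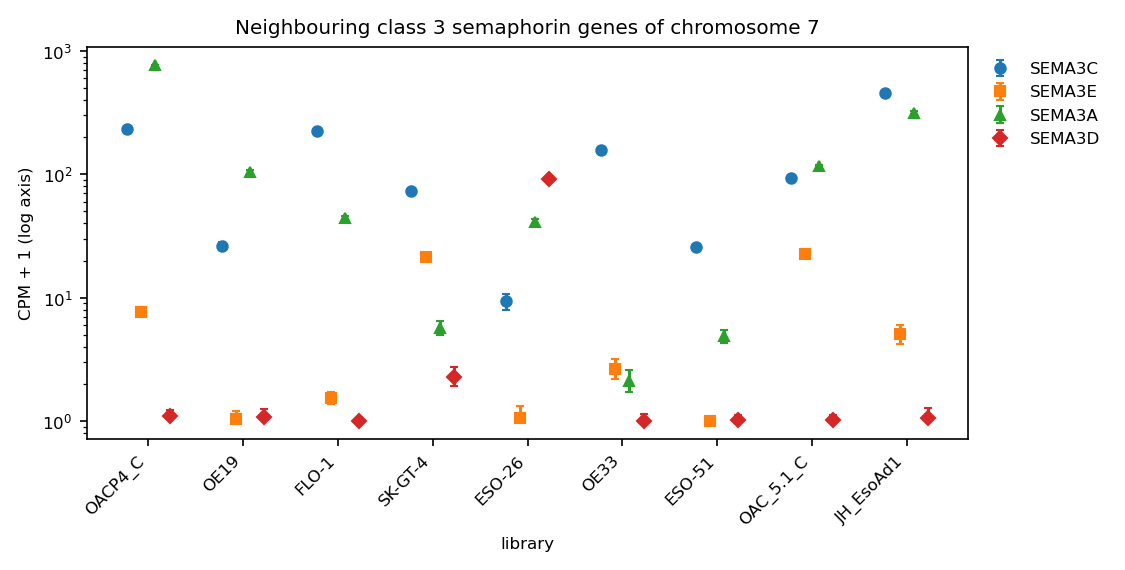
CPM + 1 (log axis) of SEMA3C, SEMA3E, SEMA3A and SEMA3D, neighbours on chromosome 7, in the 9 libraries, with exact Poisson 95% intervals as bars. SEMA3D is at 91.3 CPM in ESO-26 and at most 1.29 CPM elsewhere, whereas SEMA3A spans 1.09 to 764 CPM.

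SEMA3B and SEMA3F, secreted ligands that lie close together on chromosome 3 and are often studied as growth suppressors, differed in where they were high. SEMA3F, which acts through neuropilin-2, was 363 CPM in JH_EsoAd1 (355 to 372), against 72.6 in FLO-1, 39.1 in OE19, 36.0 in OE33, 6.38 in OACP4_C, 4.95 in SK-GT-4, 3.89 in ESO-51, 3.38 in OAC_5.1_C and 2.88 in ESO-26. SEMA3B was 539.7 CPM in OE19, 329 in FLO-1, 82.9 in SK-GT-4, 42.1 in ESO-51, 27.2 in OAC_5.1_C, 25.6 in JH_EsoAd1, 15.4 in OACP4_C, 5.58 in OE33 and 3.17 in ESO-26. The SEMA3F gap in JH_EsoAd1 was 2.31 log2 units, and 1.94 with scaling by library size alone. SEMA3G, a ligand known from blood vessel endothelium, was 11.2 CPM in OE33 (9.93 to 12.5), against 1.04 in FLO-1, 0.784 in OE19, 0.675 in SK-GT-4, 0.595 in JH_EsoAd1, 0.404 in ESO-26, 0.259 in OACP4_C, 0.245 in ESO-51 and 0.144 in OAC_5.1_C. Endothelial markers in OE33 summed to 6.49 CPM, with CDH5 at 0 counts (floor 0.113 CPM), CLDN5 at 5.85 CPM, VWF at 0.415 CPM and TEK at 0.226 CPM, and their part in the SEMA3G level was not tested.

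Which class 3 gene led depended on the line and on the gene length used. Per kilobase of the deposited length, SEMA3C led in 5 libraries, SEMA3A in 2, and SEMA3B and SEMA3D in 1 each. With the GENCODE exon length SEMA3B led in 4, SEMA3C in 2, and SEMA3A, SEMA3D and SEMA3F in 1 each. The deposited length of SEMA3B was 3.50 times its GENCODE exon length. The summed class 3 level ran from 5.52 CPM per kilobase in ESO-51 to 116 in JH_EsoAd1.

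Membrane-bound semaphorins of classes 4 to 7 included steady and sharply varying genes. SEMA4B was 8.54 CPM in ESO-26 (7.22 to 10), against 51.0 in FLO-1, 115 in ESO-51, 117 in OACP4_C, 119.6 in OAC_5.1_C, 132 in OE33, 137 in SK-GT-4, 146 in JH_EsoAd1 and 524 in OE19. SEMA4C, a ligand of plexin-B2, was 2.44 CPM in SK-GT-4 (1.93 to 3.06), against 14.5 in OAC_5.1_C, 16.7 in OE19, 43.1 in OACP4_C, 43.5 in FLO-1, 55.2 in ESO-51, 62.3 in OE33, 81.8 in JH_EsoAd1 and 154 in ESO-26. ESO-26 was therefore lowest for SEMA4B and highest for SEMA4C, with a gap of -2.45 log2 units for SEMA4B, and the gap of SEMA4C in SK-GT-4 was -2.17, where 0.618% of all genes were lower in that library.

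SEMA4G was 54.7 CPM in SK-GT-4 (52.1 to 57.4), against 12.3 in OE19, 10.8 in OACP4_C, 10.1 in ESO-51, 6.99 in JH_EsoAd1, 4.83 in FLO-1, 3.69 in ESO-26, 3.56 in OAC_5.1_C and 2.30 in OE33. The gap was 2.07 log2 units, close to the limit of 2, where 0.898% of all genes were higher in SK-GT-4. SEMA4G overlaps MRPL43 on the opposite strand, and the strand setting is not given. Its union and intersection-nonempty counts were equal. The same held for EPHA1, EPHB4, PLXNA3 and PLXNC1, which also overlap protein-coding genes on the opposite strand. For SEMA6A, whose overlapping genes are on the opposite strand too, the counts differed by 0% to 38.1%. Whether the reads of SEMA4G and MRPL43 were kept apart was not tested. SEMA5A, a semaphorin with thrombospondin repeats, was 153 CPM in SK-GT-4, 132 in JH_EsoAd1, 115 in OAC_5.1_C and 62.0 in FLO-1, against 10.4 in OE33, 5.67 in ESO-51, 5.25 in ESO-26, 0.0356 in OE19 and 0.0345 in OACP4_C. It was thus near 0 in OE19 and OACP4_C and high in 4 libraries.

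Further membrane-bound genes are given by their lowest and highest libraries. SEMA7A, which has a lipid anchor and binds plexin-C1, ranged from 0.461 CPM in ESO-26 to 51.2 CPM in JH_EsoAd1, and SEMA4D, the ligand of plexin-B1, from 3.64 CPM in OE19 to 94.5 CPM in SK-GT-4. SEMA4F, of the same class as SEMA4D, reached 28.6 CPM in OAC_5.1_C and was lowest in SK-GT-4 with 4.60 CPM, and SEMA4A, a semaphorin of immune cells and retina, reached 22.8 CPM in SK-GT-4 and was lowest in OE19 with 0.178 CPM. Class 6 members, transmembrane ligands of A plexins, were highest in OE33 for SEMA6B (43.9 CPM) and SEMA6C (16.5 CPM). SEMA6A did not pass 4.58 CPM, SEMA6D 2.73 CPM or SEMA5B 3.13 CPM in any library. SEMA4B led the class per kilobase in 4 libraries, SEMA5A in 4 and SEMA4C in 1, and with the GENCODE exon length SEMA4B led in 8.

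Plexins were dominated by PLXNB2, the receptor of several class 4 semaphorins. It was 850.1 CPM in JH_EsoAd1, 761 in OE19, 577 in OACP4_C, 434 in FLO-1, 418 in SK-GT-4, 407 in OAC_5.1_C, 388 in OE33, 229.9 in ESO-51 and 141 in ESO-26, and made up 43.1% to 69.7% of the summed plexin level per kilobase. PLXNA1, a partner of neuropilins, ranged only from 50.2 CPM in ESO-26 to 239 CPM in OAC_5.1_C. PLXNA2, of the same subfamily, was 183 CPM in JH_EsoAd1, 111 in SK-GT-4, 99.0 in OE19, 56.2 in OAC_5.1_C, 31.0 in ESO-51, 8.47 in FLO-1, 4.07 in OE33, 3.95 in OACP4_C and 0.346 in ESO-26. PLXNA2 thus spanned 7.10 log2 units and PLXNA1 2.23.

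PLXND1, the SEMA3E receptor of developing vessels, was 377 CPM in JH_EsoAd1 (368 to 385), against 85.4 in OE19, 70.9 in OACP4_C, 62.5 in OAC_5.1_C, 25.9 in ESO-51, 25.7 in FLO-1, 21.0 in OE33, 8.97 in SK-GT-4 and 2.36 in ESO-26. The gap was 2.13 log2 units, and 1.95 with scaling by library size alone. In JH_EsoAd1 the endothelial markers were CDH5 at 29.8 CPM, TEK at 1.59 CPM, VWF at 0.347 CPM and CLDN5 at 0.297 CPM, and their part in the PLXND1 level was not tested. Its ligand SEMA3E was highest elsewhere, with 4.06 CPM in JH_EsoAd1. SK-GT-4 had the reverse pairing, with SEMA3E at 20.4 CPM and PLXND1 at 8.97 CPM. OAC_5.1_C, where SEMA3E was highest (21.7 CPM), did not, with PLXND1 at 62.5 CPM.

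The remaining plexins are given beside their ligands. PLXNB1, the SEMA4D receptor, ranged from 4.61 CPM in ESO-26 to 122 CPM in SK-GT-4, the library where SEMA4D was also highest. PLXNC1, the SEMA7A receptor, ranged from 0.923 CPM in ESO-26 to 6.29 CPM in JH_EsoAd1, and SEMA7A had its lowest and highest levels in the same libraries. Shared extremes are not particular to these pairs. ESO-26 was lowest for 18 of the 38 genes never at 0 counts. JH_EsoAd1 was highest for 13 and SK-GT-4 for 11 of the 50 genes at 1 CPM in a library. PLXNA3 ranged from 13.3 CPM (OE33) to 79.2 CPM (OACP4_C). PLXNA4 was 21.2 CPM in JH_EsoAd1 and 10.3 CPM in OE33 and at most 0.226 CPM elsewhere. PLXNB3, whose reads overlap those of SRPK3, ranged from 0.173 CPM in ESO-26 to 20.5 CPM in SK-GT-4, and in ESO-26, where it had 3 counts, intersection-nonempty counting gave 133% more.

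ESO-26 and JH_EsoAd1 lay at opposite ends across the families as a whole. Of the 50 genes at 1 CPM in a library, 26 were at least 2-fold (1 log2 unit) below the median of the other 8 libraries in ESO-26 (52%, against 14.4% of all genes) and 8 at least 2-fold above it (12% of all genes). In JH_EsoAd1 24 were above (48%, against 11.2%) and 5 below (5.59%), and in SK-GT-4 19 were above (38%, against 12.4%) and 8 below (8.97%). The other 6 libraries lay between these, with 12 genes above (11.6%) and 13 below (11.6%) in OE19, 12 above (14.4%) and 6 below (5.64%) in FLO-1, and 10 above (10.6%) and 6 below (6.09%) in OACP4_C. OE33 had 10 above (12.8%) and 15 below (10.9%), ESO-51 had 8 above (12%) and 13 below (10%), and OAC_5.1_C had 11 above (12.2%) and 8 below (6.97%), where the percentages are again of all genes. The median difference over the 50 genes was -1.03 in ESO-26, 0.88 in JH_EsoAd1, 0.19 in SK-GT-4 and -0.17 in OE33, and between -0.04 and 0.01 in the other 5 libraries, while over all genes it lay between -0.02 and 0.03 in every library. Without OE19 and SK-GT-4 the counts were 25 below in ESO-26 and 24 above in JH_EsoAd1. JH_EsoAd1 had the highest level of 13 of the 50 genes (8.33% of all genes at 1 CPM in a library were highest there) and SK-GT-4 of 11 (11% of all genes). ESO-26 had the lowest level of 18 of the 38 genes that never had a count of 0, against 16% of all such genes.

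**Figure D5:**
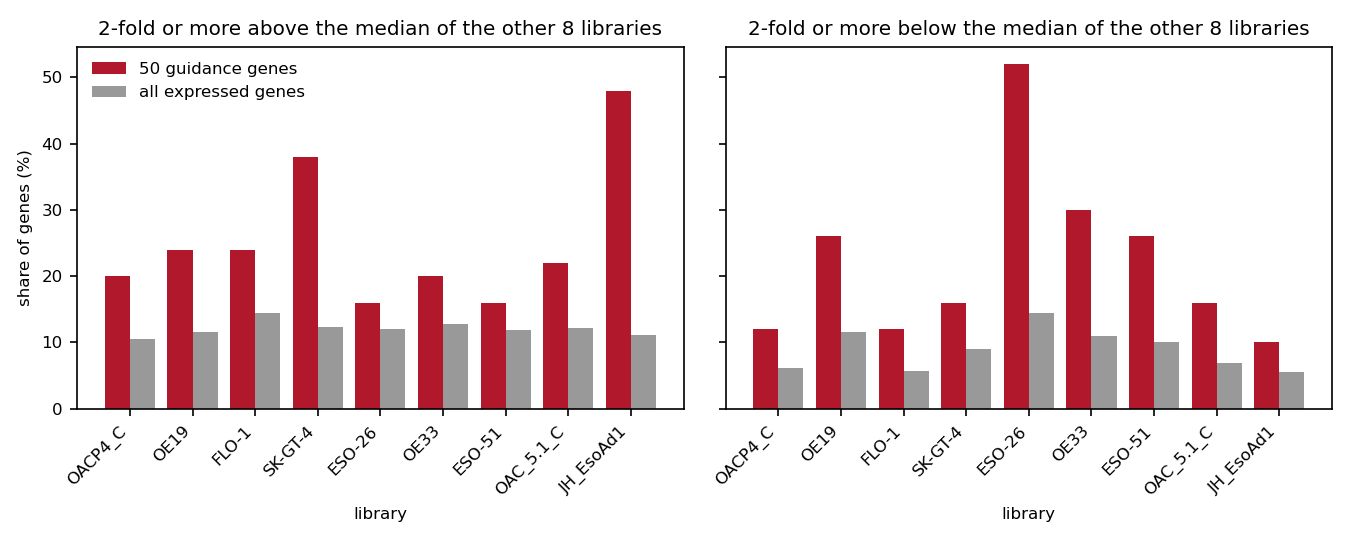
Share of genes (%) at least 2-fold above (left) or below (right) the median of the other 8 libraries, for the 50 guidance genes (red) and all expressed genes (grey), in each library. The red bars stand highest for JH_EsoAd1 on the left (48%) and for ESO-26 on the right (52%), with grey bars of 11.2% and 14.4%.

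The classes did not move alike. In ESO-26 the median difference was -2.42 for ephrin-B ligands, -2.37 for ephrin-A ligands, -2.14 for EPHB receptors, -1.78 for class 3 semaphorins and -1.58 for plexins. It was 0.32 for the EPHA receptors at 1 CPM in a library and -0.03 for classes 4 to 7. These medians are over 3 (ephrin-B) to 13 genes (classes 4 to 7). The 3 EPHA genes above in ESO-26 reached at most 4.33 CPM. Summed per kilobase, the EPHA level was still lowest in ESO-26, at 4.08 against 25.7 to 90.3 elsewhere, with EPHA2 low there. The 8 genes above there were SEMA3D, SEMA6B, EPHA7, SEMA6C, EPHA3, SEMA4C, EPHA6 and EFNB3. In JH_EsoAd1 all 7 class medians were above 0, from 0.22 for ephrin-A ligands to 1.88 for ephrin-B ligands, with 5 of 9 plexins and 4 of 7 class 3 semaphorins above. The 5 genes below in JH_EsoAd1 were EPHA10, EPHA1, EFNA1, SEMA4A and PLXNB3. In OE33 3 of 5 EPHB receptors and 4 of 9 plexins were below, and in ESO-51 4 of 7 class 3 semaphorins were.

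The counts of genes above and below in JH_EsoAd1 depended on the unit. In the authors' deposited FPKM, which divide by all counts of a line's own file, 3 of 39 genes were at least 2-fold above in JH_EsoAd1, against 1.08% of all genes, and 7 of 39 were at least 2-fold below there, against 33.6% of all genes. In that unit more of the genes were thus below than above in JH_EsoAd1, the reverse of the scaled counts. Beside all genes, however, a larger share of the guidance genes was above (7.69%, against 1.08%) and a smaller share below (17.9%, against 33.6%). In ESO-26 12 of 39 were below, against 5.57%. Counts outside the table made up 77.3% of that file in JH_EsoAd1 and 25.8% to 51.0% in the other 8, and the deposited FPKM of JH_EsoAd1 were shifted by -1.73 log2 units relative to the scaled counts. With scaling by library size alone, 19 of the 50 genes were above in JH_EsoAd1. The mitochondrial share of 24.7% is part of that library size. Leaving those genes out, with TMM factors computed again, left the 12 genes apart as they were. This cannot show the part of that share, because TMM scaling already takes it up. The step shifted JH_EsoAd1 by 0.0877 log2 units and the other 8 libraries by 0.0733 to 0.125. Counts beyond 2-fold were not repeated without mitochondrial genes.

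Co-receptors, effectors and related guidance families, a list of 70 genes, were set beside the families. Of the 58 that reached 5 CPM in a library, 6 stood higher in a library and, of the 29 at 5 CPM in 8 libraries, 5 stood lower by the same rule of size, against the shares of 7.45% and 4.48% of all genes given above. The co-receptor ERBB2, which binds B plexins, was higher in SK-GT-4 (18325 CPM, against 3515 in ESO-51) and lower in ESO-26 (10.4 CPM, against 149 in OE33). Among effectors, the exchange factor VAV3 was higher in ESO-51 (131 CPM, against 16.5 in FLO-1) and the semaphorin mediator DPYSL5 in FLO-1 (16.7 CPM, against 1.14 in JH_EsoAd1). The adaptor NCK2 had 0 counts in OE19 (floor 0.107 CPM), against 9.80 CPM in ESO-26, and the exchange factor FARP1 was 1.18 CPM in OE19, against 36.1 in FLO-1. RRAS, a GTPase that plexins switch off, was 3.38 CPM in ESO-51, against 21.8 in OAC_5.1_C, and the actin oxidase MICAL2 was 13.7 CPM in ESO-26, against 68.5 in JH_EsoAd1. PTPRO, a phosphatase of Eph receptors known from the chick, was 29.7 CPM in ESO-51, against 0.807 in ESO-26. The axon receptor ROBO3 was 71.8 CPM in OE33, against 12.9 in ESO-26, and the guidance molecule RGMA was 10.5 CPM in OAC_5.1_C, against 0.413 in FLO-1.

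The neuropilins, co-receptors of the class 3 semaphorins, were singled out after their values were seen, since neither was apart by the rule. NRP1 was 469 CPM in OACP4_C, 141 in OE19, 133 in OAC_5.1_C, 86.3 in JH_EsoAd1, 83.2 in FLO-1, 18.9 in SK-GT-4, 17.1 in ESO-51, 10.1 in ESO-26 and 7.54 in OE33. NRP2 was 194 CPM in JH_EsoAd1, 189 in OACP4_C, 142 in FLO-1, 66.5 in OE19, 12.1 in ESO-51, 3.21 in OAC_5.1_C, 1.73 in OE33, 0.965 in SK-GT-4 and 0.115 in ESO-26. OACP4_C held the highest NRP1 and SEMA3A levels, and JH_EsoAd1 the highest SEMA3F level. NRP2 was nearly equal in JH_EsoAd1 (194 CPM) and OACP4_C (189 CPM), and SEMA3F was 6.38 CPM in OACP4_C. Scaling by library size alone shifts JH_EsoAd1 by -0.268 log2 units, more than this NRP2 difference, so which of the 2 was highest depends on the scaling.

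Promoter windows were found in RefSeq for 46 of the 51 genes, and SEMA3A, EFNB3, EPHA10, SEMA6A and SEMA6B had none in the table used. The median number of CG pairs was 22 in these windows and 21 in those of protein-coding genes. It was 26.5 for genes at 1 CPM in all 9 libraries, 19 for genes at 1 CPM in at most 3 libraries and again 26.5 for the 12 genes apart in a library. The E-box CACCTG, searched on both strands, was in 10 windows (21.7%, against 20.6% of all windows), and CTTTGA, searched the same way, in 3 (6.52%, against 12.9%). TATAAA was in none of the 46 windows, against 7.33% of all windows. EPHB2 and SEMA3F were among those with the E-box and EPHA2 among those with CTTTGA, as letters only.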

How the data were processed

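Total RNA of 9 untreated cell lines was sequenced, 1 library per line. The submitters' processing notes name the build GRCh37 and the tools R 3.6.1, FastQC 0.11.7 and STAR 2.6.1d. The counting program, annotation release and strand setting are not given in the sources used here. How reads of overlapping or antisense genes were assigned is therefore not known. The authors deposited raw counts of 52158 named genes, and, per the file headers, files of each line with union and intersection-nonempty counts, a gene length and FPKM. Recomputation showed that the deposited FPKM is a count per length and per sum of counts in its file. All 51 members had equal union counts in both. The OACM5.1_C column was read as the line OAC_5.1_C. A blank gene name, with at most 0.00965% of counts, was left out.

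Counts were scaled with TMM factors from 17163 genes at 1 CPM in at least 2 libraries (edgeR 4.0.16, R 4.3.3) and used as log2(CPM + 1). Genes of a class were ranked per kilobase of deposited length, with the GENCODE exon length as an alternative. GENCODE release 29 gave gene order, overlaps and exon lengths, and RefSeq GRCh38.p14 the promoters. Size factors of DESeq2 1.42.0 served as an alternative. Tables and plots were made in Python 3.11.15 (pandas 2.3.3, matplotlib 3.10.9, scipy 1.17.1, numpy 2.4.6). With 1 library per line there was no test, and shares of all genes passing the same rule are the background. The members and lists were chosen with earlier results of these data known. Values in every library are given for members apart in a library, for the member with the highest median level per kilobase in each class, and for the 12 members with the widest range.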

Additional observations from a re-analysis of the deposited data

How the results depend on the processing

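No paired analysis was possible because each line has 1 library and no test was made. The count of 12 genes apart in a library became 5 with a pseudocount of 5 (partners 6 in place of 11). A gap of 1 log2 unit gave 23 (partners 24). The deposited FPKM gave 3, of which 2 were among the 12 (partners 2), and library size alone gave 9. With each library left out in turn, the count apart was 10 to 14 for the genes and 9 to 14 for the partners. It was 16 for the genes with OE19 and SK-GT-4 both left out. In the single removals 25 to 32 genes spanned 4 log2 units, 24 to 26 were 2-fold below in ESO-26 and 23 to 25 were 2-fold above in JH_EsoAd1. Shares of all genes were not computed for any of these removals. With the deposited FPKM the count below in ESO-26 was 12, the count above in JH_EsoAd1 was 3, the pairs of gene and library beyond 2-fold were 104 in place of 214, and 5 genes of 18 spanned 4 log2 units. Per kilobase these were 137 pairs and 10 genes of 27, and with a pseudocount of 5 the span was reached by 16 genes. Fewer genes pass the level limits in FPKM and per kilobase. Shares of all genes were not computed for the pairs and spans in these 2 units. At 5 CPM, 7 genes in place of 21 were present in all 9 libraries. DESeq2 size factors, TMM over all genes, intersection-nonempty counts and mitochondrial genes left out gave 12 genes apart. The TMM gene set, counting mode, per-kilobase values, exon lengths, range limit and the paired removal of OE19 and SK-GT-4 were chosen after seeing the data. The 4-fold calls near 2 log2 units (EPHB2, SEMA4G, PLXND1, EPHA3, SEMA4C) and levels under 1 CPM rest on few counts or a small margin.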
